A study of Mus musculus with 20 samples.

Results

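The heavy chain variable segments are the rows of the count table whose gene symbol starts with Ighv. There are 185 such rows among 55401 genes, and all of them lie on chromosome 12. The GENCODE annotation of GRCm38 classes 113 of them as functional variable genes, 70 as pseudogenes, and 2 as another kind of immunoglobulin gene, and their names place them in 16 families. Family 1 is the largest, with 93 rows. The rows span 2437 kb, from Ighv5-1 at chr12:113572927-113573402 to Ighv1-86 at chr12:116009659-116010093. On the minus strand, where 183 of the rows lie, the lowest coordinate is nearest to the diversity, joining, and constant segments and is called proximal here.

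Each developing B cell cuts and joins a variable, a diversity, and a joining segment of the heavy chain locus, and the joined exon encodes the part of the antibody that binds antigen. RAG1 and RAG2 make the cuts, and the joined variable exon is transcribed together with a constant gene such as Ighm, Ighd, or Igha. B cells rest and circulate in large numbers through the spleen, whereas the lamina propria of the gut is known for plasma cells that secrete IgA. The share of variable segment transcripts that falls on each segment is therefore a record of which B cells and plasma cells a tissue holds, weighted by how much antibody RNA each cell makes.

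Spleen and small intestine libraries were compared, with 2 from wild-type (WT) and 2 from Nsun6-KO mice in each tissue. Nsun6 encodes an RNA methyltransferase that makes 5-methylcytosine. The KO strain carries a CRISPR/Cas9 deletion of exons 3 and 4, made in C57BL/6J eggs, and homozygous mice were bred from heterozygotes. The mice were 8-week-old females, and whether WT mice were littermates and whether both tissues came from the same animals are not stated in the sources used here. Total counts were 34687048 and 25021003 in WT spleen, 30041724 and 28636897 in KO spleen, 32121286 and 28391003 in WT small intestine, and 27240407 and 26414043 in KO small intestine, for replicates 1 and 2 in this order throughout.

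The sequences shown are the 3′ ends of the 9 segments that led usage in the spleen or the small intestine, with 2 near-identical copies added to show what read counting can separate. Each is the last 99 bases of the annotated transcript on the minus strand of GRCm38, and capitals mark the codon of the conserved cysteine, with which the third framework region ends, and the bases of the segment that follow it.
Ighv1-81 (chr12:115920279-115920377): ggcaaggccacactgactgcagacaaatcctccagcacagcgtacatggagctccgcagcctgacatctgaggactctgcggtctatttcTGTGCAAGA
Ighv1-80 (chr12:115912344-115912442): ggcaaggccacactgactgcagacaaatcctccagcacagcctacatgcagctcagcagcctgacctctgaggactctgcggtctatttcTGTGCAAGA
Ighv1-55 (chr12:115208095-115208193): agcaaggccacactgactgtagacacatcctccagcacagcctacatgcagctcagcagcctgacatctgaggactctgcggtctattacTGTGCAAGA
Ighv1-53 (chr12:115158403-115158501): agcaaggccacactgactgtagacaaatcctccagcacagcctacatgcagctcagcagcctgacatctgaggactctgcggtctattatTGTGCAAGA
Ighv1-39 (chr12:114914599-114914697): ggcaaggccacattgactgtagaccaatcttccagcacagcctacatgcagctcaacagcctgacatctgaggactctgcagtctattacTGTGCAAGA
Ighv1-26 (chr12:114788372-114788470): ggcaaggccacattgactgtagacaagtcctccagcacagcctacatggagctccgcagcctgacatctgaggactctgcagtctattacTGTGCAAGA
Ighv1-9 (chr12:114583569-114583667): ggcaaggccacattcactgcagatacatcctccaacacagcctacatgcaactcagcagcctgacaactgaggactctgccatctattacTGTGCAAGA
Ighv3-6 (chr12:114288152-114288250): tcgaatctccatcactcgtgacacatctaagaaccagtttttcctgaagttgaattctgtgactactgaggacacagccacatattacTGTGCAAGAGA
Ighv9-3 (chr12:114140692-114140790): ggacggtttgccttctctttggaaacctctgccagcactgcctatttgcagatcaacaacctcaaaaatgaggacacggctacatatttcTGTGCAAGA
Ighv1-72 (chr12:115757984-115758082): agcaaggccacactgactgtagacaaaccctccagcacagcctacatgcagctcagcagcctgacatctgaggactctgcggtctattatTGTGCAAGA
Ighv1-62-3 (chr12:115460999-115461097): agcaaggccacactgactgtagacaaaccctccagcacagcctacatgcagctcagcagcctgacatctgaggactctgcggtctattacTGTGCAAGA
In the family 1 sequences printed here, any pair differed at 1 to 13 of the 99 bases. All 11 carry the same 9 bases TGTGCAAGA from the cysteine codon on, after which Ighv3-6 has 2 more. The same 9 bases end 46 of the 113 functional rows, and rows that end so held 59.4% of Ighv counts in the spleen and 68.8% in the small intestine (means of 4 libraries).

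Near-identical copies limit which segment a read can be given to. Of the 185 rows, 136 have a transcript in which every window of 100 bases occurs in no other Ighv row, and these rows held 71.4% of Ighv counts in the spleen and 67.0% in the small intestine. Ighv1-72, the segment known from antibodies of C57BL/6 mice to the hapten NP, differs from Ighv1-62-3 at 2 of its last 290 bases, and 57.2% of its windows are its own. Ighv1-72 had 112 and 113 counts in WT spleen, against 67 and 146 in KO spleen, whereas Ighv1-62-3 had 2 and 2 in WT, against 4 and 0 in KO. The level of either row is uncertain for this reason. Of the 9 leading segments, Ighv1-26, Ighv1-53, and Ighv1-55 had 92.1%, 97.6%, and 94.0% of their windows to themselves and the other 6 had all.

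The libraries were unlike in ways that bear on segment usage. Nsun6 had 7.11 and 5.13 CPM (counts scaled to a common library size) in WT spleen, 4.71 and 7.72 in KO spleen, 12.4 and 7.83 in WT small intestine, and 11.5 and 6.54 in KO small intestine. The genotypes overlapped, and the counts cover the whole gene, not only the deleted exons, so they do not check the genotype. Ighv rows had 2112 and 831 counts in WT small intestine but 71 in KO replicate 1 and 1870 in KO replicate 2. Values of KO replicate 1 of the small intestine therefore rest on 71 counts. Most means and tests that use it are also given over the other libraries, as the values without KO replicate 1. The small intestine means of 68.8% on rows ending in TGTGCAAGA and 67.0% on rows with unique windows include it and are not.

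Replicate 1 of the small intestine differed from replicate 2 in both genotypes. Fabp6, a bile acid binding protein of the ileum, was at 8578 and 7450 CPM in replicates 1 of WT and KO and at 0.301 and 0.515 CPM in replicates 2. The 12 B cell markers summed to 659 CPM in WT replicate 1, 23.2 in WT replicate 2, 4.70 in KO replicate 1, and 102 in KO replicate 2, with Ms4a1, Pou2af1, Cd79b, and Cd79b as the most abundant gene in turn. Ms4a1, which encodes CD20, was at 124 and 0.10 CPM in WT, against 0.777 and 17 CPM in KO. Of the 12 markers 1 was at 0 in WT replicate 2 and 3 were at 0 in KO replicate 1. In the spleen the same list summed to 5172 and 4294 CPM in WT, against 4226 and 3689 in KO, so the labelled tissue carries its B cell markers. The 8 enterocyte markers summed to between 15822 and 48866 CPM in the small intestine, with Fabp2 the most abundant in all 4 libraries and none at 0. The part of B cell content in the differences between libraries was not tested.

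Segments of the spleen were first described without regard to genotype. A count was found for 133 of the 185 rows in at least 1 spleen library and for 100 rows in all 4. Among functional rows, 107 of 113 had a count in a spleen or small intestine library, against 28 of 70 pseudogenes. The 6 functional rows at 0 in all 8 libraries were Ighv5-12-4, Ighv7-2, Ighv16-1, Ighv1-16, Ighv1-24, and Ighv1-62-1. Pseudogenes together held 0.785% and 0.694% of Ighv counts in WT spleen and 0.511% and 0.416% in KO spleen, and the most used of them, Ighv8-7, had 16, 10, 14, and 14 counts. Most functional segments were thus detected, and few counts lay on the pseudogenes.

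Usage was concentrated on few segments in both tissues. The 10 most used rows held 41.3% of Ighv counts in the spleen and 44.5% in the small intestine, and the 20 most used rows held 60.6% and 67.9% (sums of mean shares over 4 libraries). For the small intestine without KO replicate 1 the sums were 45.7% and 65.0%. To compare segments with each other, counts were divided by exon length and given as a share of the Ighv sum. On this length-scaled share the spleen order was Ighv1-81 (8.07%), Ighv3-6 (6.18%), Ighv1-26 (4.72%), Ighv1-9 (4.07%), Ighv9-3 (3.9%), Ighv1-53 (3.21%), Ighv1-55 (3.0%), and Ighv1-80 (2.96%). The order of the small intestine was Ighv1-81 (6.91%), Ighv1-53 (5.57%), Ighv3-6 (5.33%), Ighv1-55 (4.98%), Ighv1-26 (4.33%), Ighv1-39 (4.18%), Ighv1-9 (3.94%), and Ighv9-3 (3.45%). This order depended on KO replicate 1, without which Ighv3-6 (7.11%) came first, then Ighv1-53 (6.45%), Ighv1-81 (5.81%), Ighv1-26 (5.77%), Ighv9-3 (4.60%), Ighv1-39 (3.63%), Ighv1-55 (3.35%), and Ighv1-9 (3.31%). The same 8 segments led with and without it, and 7 of them were among the 8 leading segments of the spleen. Neighbours in either order differed by less than the spread between libraries, as the plot of leading segments shows.

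**Figure D1:**
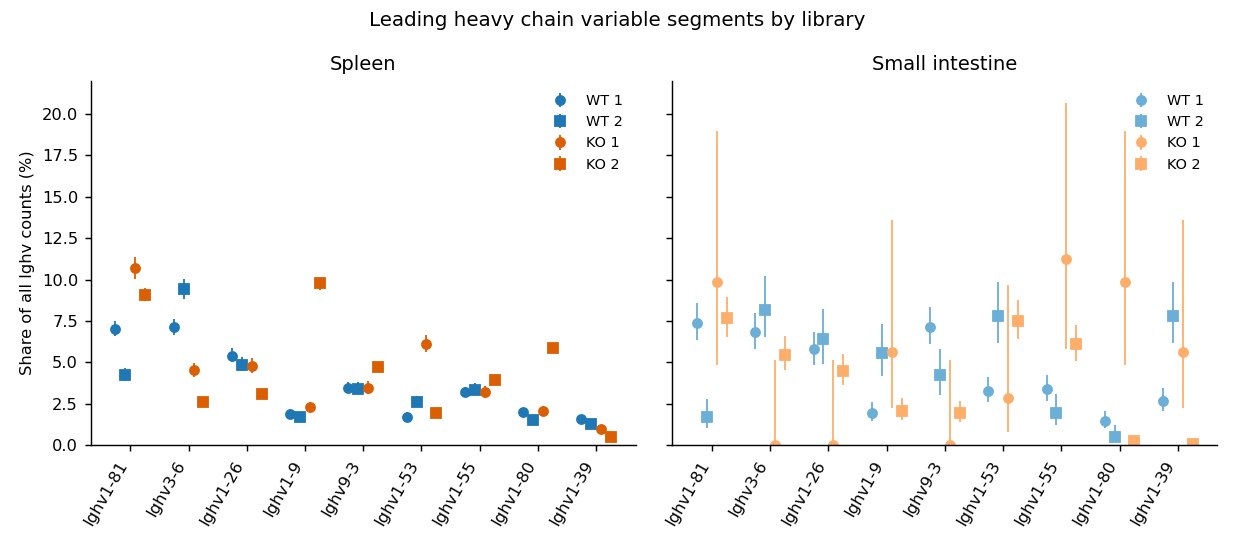
Share of all Ighv counts (%, y axis) for the 9 leading segments (x axis) in each spleen and small intestine library. Points are libraries, circles are replicates 1, squares are replicates 2, and bars are 95% Wilson intervals for counting error. Ighv1-9 stands at 9.78% in KO replicate 2 of the spleen and between 1.72% and 2.28% in the other 3 spleen libraries, and the intervals of KO replicate 1 of the small intestine are wide.

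The most used segment changed from library to library. In WT spleen it was Ighv3-6 in both replicates, with 834 of 11718 Ighv counts (7.12%, 95% Wilson interval 6.67 to 7.60%) and 909 of 9654 (9.42%). In KO spleen it was Ighv1-81 in replicate 1, with 942 of 8813 counts (10.7%, 10.1 to 11.4%), and Ighv1-9 in replicate 2, with 2164 of 22119 (9.78%, 9.40 to 10.2%). In the small intestine Ighv1-81 led in WT replicate 1 with 7.39% and in KO replicate 2 with 7.65%, Ighv3-6 led in WT replicate 2 with 8.18%, and Ighv1-55 led in KO replicate 1 with 8 of 71 counts (11.3%, 5.82 to 20.7%). These intervals cover counting error only, since reads carry no molecular identifiers and both reads of a pair may have been counted.

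To learn whether Nsun6 KO changed the variable segments of the spleen, the level of each segment was compared between the 2 KO and 2 WT libraries. In edgeR no segment passed the threshold for differentially expressed genes (DEGs), an adjusted p under 0.1 with a change of more than 2-fold, whereas DESeq2 called 3. Ighv3-6 had its 2 lower levels and Ighv1-53, Ighv1-81, and Ighv1-11 their 2 higher levels in the KO libraries, and the latter 3 passed the test of DESeq2 but not that of edgeR, while the excess of Ighv1-9, Ighv1-80, and Ighv1-18 lay in KO replicate 2 alone. Of the 185 rows, 89 passed the filter on low counts. The quasi-likelihood test of edgeR (p-values adjusted after Benjamini and Hochberg) called 0 of them, beside 0.223% of all 18834 genes tested. Among 89 rows 0 calls is near that share and says little about the segments. At an unadjusted p under 0.05 there were 10 of the 89, beside 5.14% of all genes. DESeq2 called 3 of the 73 rows to which it gave an adjusted p, Ighv1-11, Ighv1-53, and Ighv1-81, beside 1.35% of all such genes. The fit of edgeR without a filter on low counts called 8 of 133 rows, beside 1.04% of all genes, and that with the replicate number as a block called 0, beside 0.228%. The median log2 fold change of the 89 rows was 0.30, beside 0.01 for all genes tested.

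The segments with the smallest p in each direction were looked at library by library. Ighv1-53 was at 4.51 and 7.74 CPM in WT spleen, against 14.3 and 11.6 CPM in KO spleen. Both KO values lay above both WT values, with a log2 fold change of 1.12 (SE 0.32, adjusted p = 0.453 by edgeR). As a share of Ighv counts it was 1.72% and 2.61% in WT and 6.10% and 1.92% in KO, and these ranges overlap. Ighv1-11 was at 0.628 and 0.737 CPM in WT, against 4.34 and 1.59 CPM in KO, a log2 fold change of 2.15 (SE 0.56, adjusted p = 0.364). Its larger KO value was that of replicate 1, the library with fewer Ighv counts. The share of Ighv1-11 was 0.239% and 0.249% in WT and 1.85% and 0.262% in KO, where replicate 2 lay just above WT. Ighv5-9 was at 1.19 and 1.01 CPM in WT, against 2.56 and 2.41 CPM in KO, again with no overlap (log2 fold change 1.22, SE 0.39, adjusted p = 0.630). As a share of Ighv counts it was 0.452% and 0.342% in WT and 1.09% and 0.398% in KO, which overlap. Ighv1-81, the leading segment of the spleen, was at 18.5 and 12.6 CPM in WT, against 25.1 and 55.0 CPM in KO (log2 fold change 1.43, SE 0.45, adjusted p = 0.784 by edgeR). Its KO levels also lay above both WT levels, that of replicate 2 the most. Its share of Ighv counts was 7.02% and 4.26% in WT and 10.7% and 9.09% in KO, with no overlap and with KO replicate 1 the higher.

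Ighv3-6, the leading segment of both WT spleens, was at 18.7 and 27.9 CPM in WT, against 10.6 and 15.8 CPM in KO. The groups did not overlap, and the log2 fold change was -0.77 (SE 0.30, adjusted p = 0.882 by edgeR). Its share of Ighv counts was 7.12% and 9.42% in WT and 4.53% and 2.61% in KO. Ighv1-43 had 19 and 56 counts in WT, against 2 and 4 in KO (log2 fold change -3.62, SE 0.94, adjusted p = 0.364). Ighv9-4 was at 1.26 and 5.16 CPM in WT, against 0.932 and 0.684 CPM in KO (log2 fold change -1.95, SE 0.70, adjusted p = 0.801). For Ighv1-43 and Ighv9-4 the values of both WT replicates were above those of KO, and WT replicate 2 held most of the excess.

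KO replicate 2 of the spleen stood apart from the other 3 spleen libraries. Ighv1-9 had 222 and 166 counts in WT, 201 in KO replicate 1, and 2164 in KO replicate 2. Its share of Ighv counts was thus 1.89%, 1.72%, and 2.28% in 3 libraries and 9.78% in the fourth. Ighv1-80, near the distal end of the cluster, was at 1.99%, 1.49%, and 2.07% and at 5.87%. Ighv1-18, singled out after its values were seen, was at 1.69% and 1.93% in WT, 2.35% in KO replicate 1, and 4.54% in KO replicate 2. The other KO library did not share these high values. Without KO replicate 2, the median log2 fold change of the Ighv rows by edgeR turned from 0.30 to -0.40, so its direction depended on that library. Without KO replicate 1, KO replicate 2 is the only KO library and the WT pair alone gives the spread. The segments called in that fit were those already seen to be high in KO replicate 2, so they are no evidence on genotype.

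**Figure D2:**
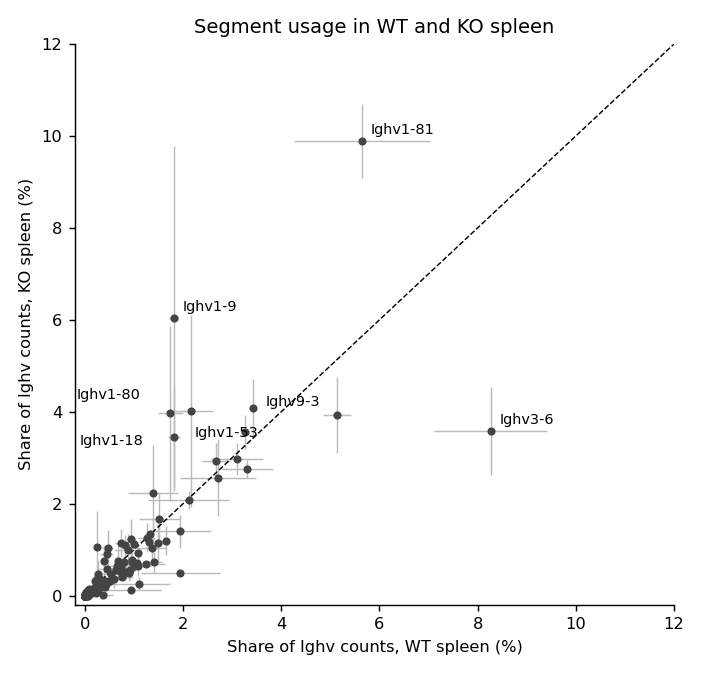
Share of Ighv counts (%) of each of the 185 rows in WT spleen (x axis) and KO spleen (y axis). Points are means of 2 libraries, bars run from the lower to the higher library, and the dashed line marks equal shares. Ighv3-6 lies below the line, Ighv1-81 lies above it, and the bar of Ighv1-9 reaches from 2.28% to 9.78% in KO.

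Evenness was measured by the effective number of segments, the number of equally used segments that would give the same chance of drawing the same segment from a pair of counts, corrected for the depth of each library. It was 37.7 and 38.7 in WT spleen, against 31.9 and 27 in KO spleen, so that the KO values were the 2 lowest of the 4. With 2 libraries against 2 the smallest p of an exact permutation test is 0.333, so no test was made. The summed Ighv level was 0.0338% and 0.0386% of all counts in WT spleen and 0.0293% and 0.0772% in KO spleen, with overlapping groups. Genes of other cells moved with genotype in these libraries. The 8 erythroid markers summed to 823 and 963 CPM in WT, against 2503 and 2625 CPM in KO, with Slc4a1 the most abundant in all 4 and none at 0. By edgeR 5 of the 8 were called higher in KO, beside 0.223% of all genes in either direction. The hepatocyte markers summed to 4353 CPM in WT replicate 2, with Alb at 3158 CPM, and to 138, 319, and 350 CPM in the other 3 spleens. Their part in the segment values was not tested.

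Other genes of the antibody pathway showed no call by edgeR in the spleen, where 0.223% of all 18834 genes tested were called. In lists this short, 0 calls is near that share and says little about the genes. Of the 8 heavy chain constant genes 0 were called, and their median log2 fold change was 0.57. None of the 12 B cell, 10 plasma cell, and 6 germinal centre genes was called either, with medians of -0.16, 0.13, and 0.54. Jchain, which links IgA and IgM units, was at 887 and 883 CPM in WT, against 1148 and 1919 CPM in KO. Of the 6 genes of recombination and precursor B cells, 4 could be tested and 0 were called. Rag1 was at 0.157 and 0.768 CPM in WT, against 0.213 and 0.958 CPM in KO. Igll1, a part of the surrogate light chain, was at or under 0.109 CPM in every spleen library.

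The same comparison in the small intestine tested 37 Ighv rows and called 0, and 0% of all 17680 genes tested were called. At an unadjusted p under 0.05 there were 2 of the 37, beside 2.39% of all genes, and DESeq2 called 1 of 15, Ighv1-39, beside 0.334% of all genes to which it gave an adjusted p. The median log2 fold change of the 37 rows was -0.27, beside 0.00 for all genes. With KO replicate 1 left out, edgeR again called 0 and the median turned to 0.74. Ighv1-39 had 56 and 65 counts in WT, against 4 and 1 in KO (log2 fold change -4.45, SE 0.91, adjusted p = 1.0 by edgeR). Its share of Ighv counts, however, was 2.65% and 7.82% in WT and 5.63% and 0.0535% in KO, since KO replicate 1 had few Ighv counts in all. Ighv5-17 had 60 and 15 counts in WT, against 0 and 1 in KO, and Ighv10-3 had 21 and 13 in WT, against 0 and 2 in KO. For these 3 segments both WT counts were above both KO counts.

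The 3 segments with the smallest p for a higher KO level were not separated by genotype. Ighv1-75 had 16 and 1 counts in WT, against 7 and 41 in KO. Ighv1-78 had 19 and 0 counts in WT, against 0 and 89 in KO. Ighv5-4 had 12 and 3 in WT, against 0 and 34 in KO. In all 3 the highest count was that of KO replicate 2, and without that library the log2 fold change turned negative. The effective number was 32.4 and 24.5 in WT, against 16.7 and 29.9 in KO, with overlapping groups. The log2 fold change was negative for 12 of the 12 B cell genes, with a median of -2.86 and 0 called, beside 0% of all genes. Their summed level was highest in WT replicate 1.

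**Figure D3:**
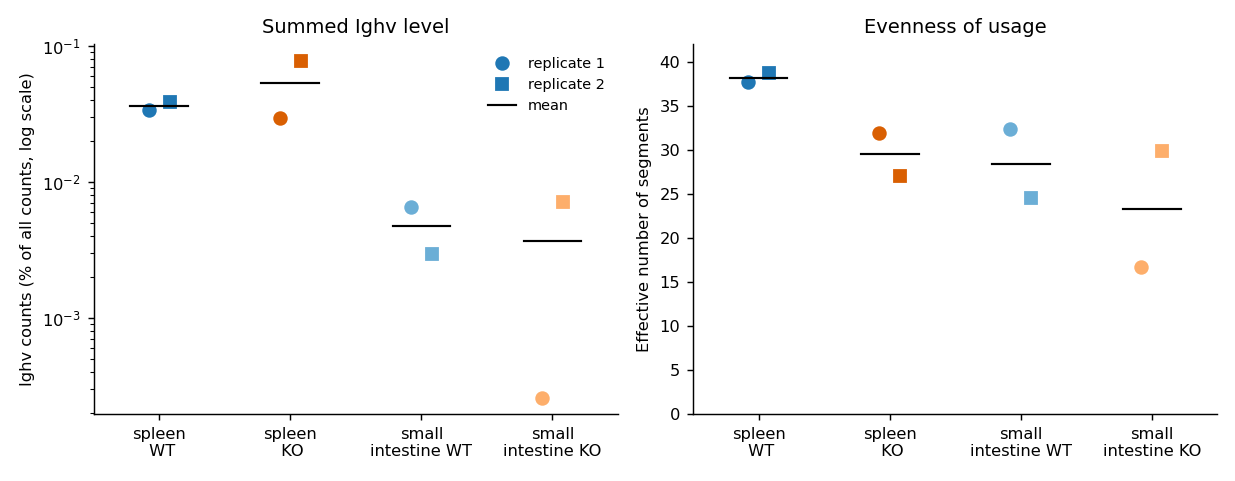
Left, summed Ighv counts as a percentage of all counts (log scale). Right, the effective number of segments. Points are libraries, with circles for replicates 1 and squares for replicates 2, and lines are means of 2. The 4 spleen libraries sit between 0.0293% and 0.0772% and the 4 small intestine libraries between 0.000261% and 0.00708%, and KO spleen lies below WT spleen in effective number.

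Spleen and small intestine differed in the summed level of the variable segments. The Ighv share of all counts was 0.0447% ± 0.0220 (SD, n = 4) in the spleen and 0.00421% ± 0.00322 (SD, n = 4) in the small intestine. Every spleen library lay above every small intestine library, and the difference of 0.0405 percentage points gave p = 0.0286 in a two-sided exact permutation test, the smallest p that 4 libraries against 4 can give. Adjusted over the 6 measures compared between tissues the p was 0.171, which does not pass 0.05. Without KO replicate 1 of the small intestine the difference was 0.0392 percentage points (p = 0.0286, exact permutation). In bulk tissue, fewer B cells and less antibody RNA per cell cannot be told apart, and the cause was not tested. Kappa constant RNA (Igkc) stood at 3839 CPM in KO replicate 2 of the small intestine, inside the spleen range of 2845 to 4176 CPM. The other small intestine libraries lay at 61.8 to 1852 CPM. Per 100 kappa variable (Igkv) counts, every spleen library had 15.2 to 26.5 Ighv counts. WT small intestine had 21.7 in replicate 1 but 4.13 in replicate 2, against 10.1 (replicate 1) and 8.81 (replicate 2) for KO. What sets these ratios was not tested.

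The level fits of single segments gave the same direction. Of the 88 rows that passed the filter, 71 were called higher in the spleen and 0 lower, beside 25.6% and 26.6% of all 20601 genes tested. In the small intestine alone 37 rows passed the filter, so most of the 88 passed through the spleen, where they are high. Their count and fold changes are therefore a description only and are given with no p. The fit without KO replicate 1 of the small intestine called 72 of 100 rows higher and 0 lower, beside 48.2% of all genes in either direction. With the replicate number as a block 73 of 88 were called higher, beside 51.5% of all genes in either direction. Ighv13-2 had 26 and 17 counts in WT spleen, against 26 and 73 in KO spleen, and 0 in all 4 small intestine libraries. Set against 3 counts over the 4 libraries, its level as a fraction of all counts was at least 46.1-fold higher in the spleen, with the floor taken over the group. Ighv8-2 had 22, 19, 23, and 12 counts in the spleen and 1, 0, 0, and 0 in the small intestine. Ighv5-6 had 92, 101, 67, and 76 against 8, 0, 0, and 0, a log2 fold change of 5.03 (SE 1.04).

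Ighv11-2, known from B-1 cell antibodies to phosphatidylcholine, had 72 and 110 counts in WT spleen, 118 and 142 in KO spleen, and 4, 0, 0, and 6 in the small intestine. The log2 fold change was 4.70 (SE 0.95). Ighv12-3, known from the same kind of antibody, had 33, 16, 19, and 29 counts in the spleen and 6, 4, 0, and 0 in the small intestine. As shares of Ighv counts the segments parted. Ighv11-2 held 0.934% ± 0.362 (SD, n = 4) in the spleen and 0.128% ± 0.157 in the small intestine, where the 0 of KO replicate 1 allows a share above every spleen value, whereas Ighv12-3 held 0.199% ± 0.0654 and 0.191% ± 0.235. The shares in the small intestine without KO replicate 1 were 0.17% ± 0.161 (SD, n = 3) for Ighv11-2 and 0.255% ± 0.242 for Ighv12-3. Ighv9-4 and Ighv2-5, the other segments among the 6 with the smallest p, had log2 fold changes of 4.37 (SE 0.80) and 4.07 (SE 0.81).

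To compare usage and not level, the library size was set to the Ighv counts of each library. Called higher in the spleen were then 5 of the 88 rows, Ighv5-12, Ighv13-2, Ighv8-2, Ighv1-38, and Ighv8-7, and 0 were called lower. Under this scaling 1.65% of all genes were called higher and 66.5% lower, so adjustment over all genes was mild. All 5 passed the filter only through the spleen, where they are high, so these calls are a description and no evidence of a difference in usage. Of small intestine counts Ighv5-12 had 4 and Ighv8-2 had 1, all in WT replicate 1, and Ighv13-2, Ighv1-38, and Ighv8-7 had 0. No fold of their shares is given, since a 0 allows a share of 0.142% to 4.23% in these libraries. Without KO replicate 1 of the small intestine, a choice made after the data were seen, 8 of 100 rows were called higher in the spleen and 2 lower, beside 4.2% and 61.9% of all genes. The 8 were Ighv5-6, Ighv5-12, Ighv7-1, Ighv14-2, Ighv11-2, Ighv13-2, Ighv8-7, and Ighv1-80. The first 7 of these had between 0 and 12 counts in each of the 3 small intestine libraries and were high in the spleen, so their calls too are a description. The 2 with a higher share in the small intestine were Ighv3-1 and Ighv14-3. Ighv1-80 was the only leading segment called in either of these fits, and its call rested on the library left out. Its share was 1.47% and 0.481% in WT small intestine and 9.86% and 0.267% in KO small intestine, where the highest is that of KO replicate 1, and its log2 fold change was 0.31 with all 8 libraries and 1.77 without it. Its spleen share was above 2.07% in KO replicate 2 alone.

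Of Ighv3-1 and Ighv14-3, Ighv3-1 (ENSMUSG00000093838, chr12:113964388-113964818) had the more even excess in the small intestine. Its share of Ighv counts was 0.375% and 0.435% in WT spleen, 0.374% and 0.271% in KO spleen, 3.17% and 1.2% in WT small intestine, and 1.41% and 1.55% in KO small intestine. The other 3 small intestine libraries lay above every spleen library, whereas KO replicate 1 rests on 1 count, whose interval of 0.249 to 7.56% includes spleen values. On the usage scale the log2 fold change of spleen over small intestine was -2.33 (SE 1.54, adjusted p = 0.167 by edgeR) with all 8 libraries. Without that library it was -2.38 (SE 0.82). No p is given for the latter fit, since adjustment over all genes was mild on this scale. The segment and the library left out were also chosen after the data were seen. Its nearest relative over the last 290 bases is Ighv3-6, with 93.4% identity, and all its 100-base windows are its own. Ighv3-6 itself held 5.92% ± 2.97 (SD, n = 4) in the spleen and 5.11% ± 3.59 in the small intestine, or 6.82% ± 1.36 (SD, n = 3) without KO replicate 1. Ighv14-3 held 0.734% and 0.632% in WT spleen, 1.12% and 0.371% in KO spleen, 1.28% and 7.58% in WT small intestine, and 0% and 1.28% in KO small intestine, so its excess was mostly that of WT replicate 2.

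Family 1 held the largest share in every library. It held 57.2% and 51.4% of Ighv counts in WT spleen, 62.7% and 65.2% in KO spleen, 59.3% and 60.5% in WT small intestine, and 93.0% and 64.3% in KO small intestine. The means were 59.1% ± 6.14 (SD, n = 4) in the spleen and 69.3% ± 15.9 in the small intestine (p = 0.343, two-sided exact permutation test, adjusted p = 0.600). Without KO replicate 1 of the small intestine the difference shrank from -10.1 to -2.24 percentage points (p = 0.657, exact permutation). Within the spleen, both KO libraries lay above both WT libraries. Family 3, which holds Ighv3-6 and Ighv3-1, went the other way, with 9.28% and 11.1% in WT spleen and 5.97% and 3.56% in KO spleen. Family 11 was at 0.953% ± 0.365 in the spleen and 0.128% ± 0.157 in the small intestine (0.17% ± 0.161 without KO replicate 1), and family 13 had no count in the small intestine. The only row of family 16 was at 0 in all 8 libraries.

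**Figure D4:**
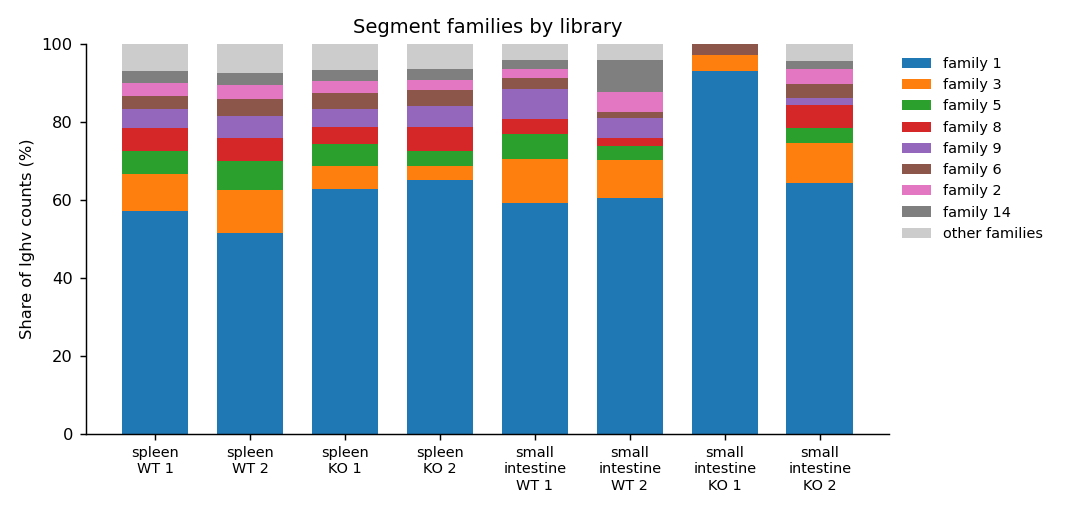
Share of Ighv counts (%, y axis, stacked to 100%) held by the 8 most used families and by all others in each library (x axis). Family 1 makes up between 51.4% and 65.2% of every spleen bar, and KO replicate 1 of the small intestine, with 71 counts, is at 93.0%.

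Position along the cluster was examined in 4 sections of 46 or 47 rows each, in order of coordinate. The proximal section has 30 functional rows and no family 1 row, and the distal section has 31 functional rows and 36 family 1 rows. In the spleen the sections held 15.0% ± 2.52, 27.8% ± 3.0, 21.3% ± 2.35, and 35.9% ± 3.92 of Ighv counts from proximal to distal (SD, n = 4). In the small intestine they held 12.6% ± 6.07, 21.7% ± 9.25, 26.2% ± 6.14, and 39.5% ± 20.2. With KO replicate 1 left out, which had 66.2% in the distal section, these were 15.4% ± 2.84, 26.1% ± 3.36, 27.8% ± 6.30, and 30.6% ± 11.6 (SD, n = 3). The distal section held the highest mean share in both tissues, with and without that library, although in WT replicate 2 of the small intestine it held the lowest, at 18.4%. Its most used segment by mean share was Ighv1-81 in both tissues, but not in that WT library, where Ighv1-81 held 1.68%. In every spleen library the proximal section held the lowest share of the 4, with 15.1% and 17.9% in WT and 15.4% and 11.7% in KO.

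No difference between the tissues in position was found. The proximal section was 2.36 percentage points higher in the spleen (p = 0.629, two-sided exact permutation test), and 0.440 percentage points lower without KO replicate 1 of the small intestine, the reverse sign. The median position of an Ighv count, read from the proximal end, was 1215 and 1110 kb in WT spleen and 1215 and 1215 kb in KO spleen. In the small intestine the distances were 1173 and 1110 kb in WT and 1762 and 1547 kb in KO. Both KO small intestine libraries lay beyond both WT libraries, 1 of them on 71 counts. The means of the tissues were 1189 ± 52.9 kb and 1398 ± 310 kb (SD, n = 4, p = 0.400, exact permutation). Leaving out KO replicate 1 of the small intestine, they differed by -87.6 kb (p = 0.686, exact permutation).

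**Figure D5:**
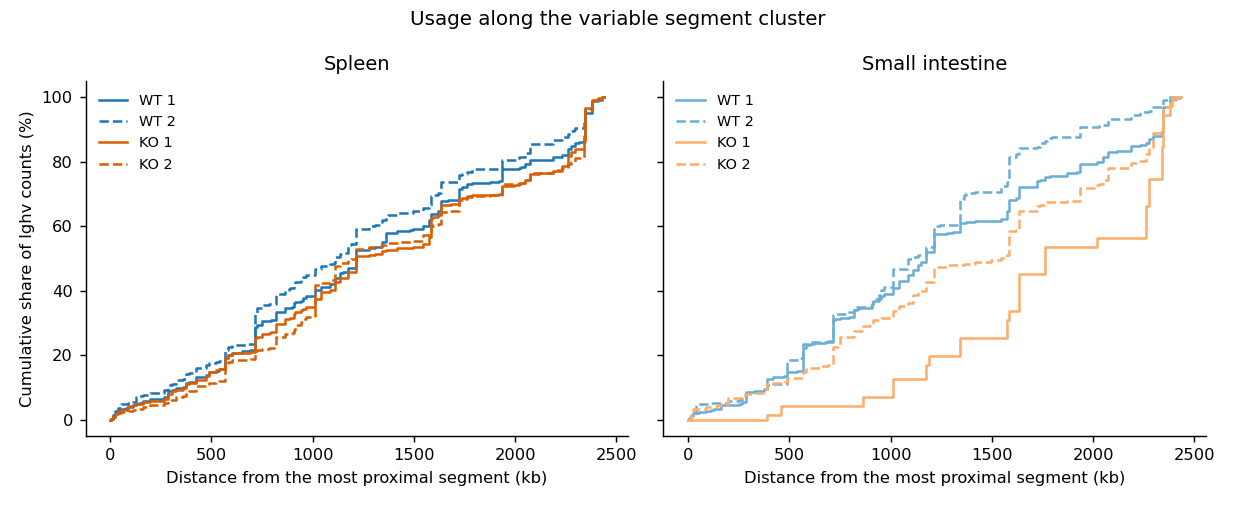
Cumulative share of Ighv counts (%, y axis) against the distance from the most proximal segment (kb, x axis), left in the spleen and right in the small intestine. Lines are libraries, solid for replicates 1 and dashed for replicates 2. The spleen lines run close together, and the line of KO replicate 1 of the small intestine rises in few steps because it rests on 71 counts.

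The outermost row at either end was little used, unlike some of its neighbours. Ighv5-1, the most proximal row and a pseudogene, had 3 and 0 counts in WT spleen, against 0 and 2 in KO spleen, and 0 in the small intestine. Ighv5-2, a functional segment close to it that is known as VH81X from early B cell precursors, had 34, 20, 13, and 15 counts in the spleen. Its share was 0.290% and 0.207% in WT and 0.148% and 0.0678% in KO, both KO values being the lower. In the small intestine it had 2, 3, 0, and 0 counts. Ighv1-86, the most distal row, had 0, 2, 0, and 2 counts in the spleen and 0 in the small intestine. Near the proximal end, Ighv2-2 and Ighv5-4 held mean shares of 0.845% and 0.972% in the spleen, above the median of 0.365% of the functional rows of the proximal section. Next to Ighv1-86, Ighv1-85 held 0.637%, close to the median of 0.625% in the distal section.

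Evenness and dominance did not separate the tissues. The effective number was 33.8 ± 5.43 in the spleen and 25.9 ± 6.94 in the small intestine (SD, n = 4, p = 0.143, two-sided exact permutation test, adjusted p = 0.429). Without KO replicate 1 of the small intestine the difference fell from 7.98 to 4.92. The share of the most used segment was 9.25% ± 1.52 and 8.62% ± 1.80 (p = 0.571, exact permutation), and without that library the difference was 1.51 percentage points (p = 0.171, exact permutation). Drawn down to 831 Ighv counts, the spleen libraries were expected to show 92.9 and 90.4 rows in WT and 85.6 and 83.6 in KO, and those of the small intestine 84.5 and 64.0 in WT and 69.3 in KO replicate 2. Across the 185 rows, Spearman's rho of the shares was between 0.925 and 0.947 for the 6 pairs of spleen libraries. It was between 0.346 and 0.893 for the 16 pairs of a spleen and a small intestine library (median 0.763) and between 0.300 and 0.787 for the 6 pairs within the small intestine (median 0.530). With the spleens, WT replicate 1 of the small intestine gave the highest values and KO replicate 1 the lowest. These values are across segments that share libraries and depth, and are given as a description.

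Variable segment counts were low beside those of the constant genes. Per 100 counts on the 8 constant genes there were 5.30 and 6.52 Ighv counts in WT spleen, 4.50 and 10.6 in KO spleen, 8.64 and 6.43 in WT small intestine, and 5.44 and 3.29 in KO small intestine. For the kappa light chain the ratio of variable to constant counts was far higher, at 51.3 and 47.6 Igkv counts per 100 Igkc counts in WT spleen and 37.1 and 58.6 in KO spleen. These ratios are of raw counts, not divided by exon length. Gene length therefore enters the contrast of heavy and kappa chains, and its part was not tested. Joining segments of the heavy chain had 241, 169, 79, and 315 counts in the spleen and diversity segments 38, 17, 11, and 39. Among the constant genes, Ighm took 62.7% and 64.8% of counts in WT spleen and 59.5% and 65.6% in KO spleen. Igha took 58.4% and 96.4% in WT small intestine and 83.8% and 96.9% in KO small intestine. In WT replicate 1 of the small intestine, the library with the most B cell marker RNA, Ighm and Ighd took 13.8% and 11.4%.

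The effect of genotype on a segment was also compared between the tissues. Of 88 rows 0 were called in the interaction of tissue and genotype, and 0% of all 20601 genes were called. At an unadjusted p under 0.05 there were 7 of the 88, beside 4.21% of all genes, and DESeq2 called 1 of 86, Ighv1-39, beside 0.299% of all genes to which it gave an adjusted p. The median log2 value of the interaction was 0.98 for the Ighv rows and 0.00 for all genes, and it was -0.35 for the Ighv rows without WT replicate 1 of the small intestine and 0.21 without KO replicate 1, with 0 called in both.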

How the data were processed

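The series holds 20 libraries of polyadenylated RNA from 5 tissues, 2 per tissue and genotype, grouped by their labels. The 8 spleen and small intestine libraries were compared here. Per the labels and methods, the authors trimmed reads with cutadapt, mapped them with HISAT2 2.1.0, and counted them with featureCounts 2.0.1 on exons of the Ensembl GRCm38 annotation. The deposited values are raw counts per gene, not normalized, beside 1 other column with the exon length of each gene. The genome is GRCh38 in the methods but mm10 in the labels, and the gene identifiers are those of mouse. Reverse-stranded counting of proper pairs is described, but the command in the file header has no option for strand, pairs, or reads that map to several places. The command's defaults leave out reads that map to several places or overlap several genes. Total counts ranged from 15897446 to 44508197 over the 20 libraries.

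Ighv counts were taken as shares of their sum in each library, so each Ighv count sets the precision of a share. 95% Wilson intervals and the floor of 3 counts cover counting error only. Levels were tested with edgeR 4.0.16 in R 4.3.3 (TMM, filterByExpr, robust quasi-likelihood test, Benjamini-Hochberg adjustment over all genes), with DEGs called below an adjusted p of 0.1 and beyond a 2-fold change. Spleen and small intestine genotypes were fitted apart, and tissue and interaction in a fit of 8 libraries. CPM are after TMM normalization. Libraries were treated as independent, and p-values measure the spread between them. Usage measures were compared by two-sided exact permutation tests over 70 splits, adjusted over 6 measures, with Python 3.11.15, numpy 2.4.6, pandas 2.3.3, and scipy 1.17.1. Scripts were tested on simulated data. Gene classes and transcript sequences are those of GENCODE M21. Sequence windows were 100 bases.

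Alternatives were DESeq2 1.42.0, median-of-ratios size factors, library size set to Ighv counts, other filters and thresholds, the replicate number as a block, a fit of all 20 libraries, usage per exon length, without the leading segment, with rows of a mean of at least 10 counts or with unique windows, other position bins, and each library left out. The segments, lists, and tests were chosen with earlier results of these data known. Segments were named by rule: the 8 with the highest length-scaled share in each tissue, the most used of each library, those with the smallest p in each fit, Ighv1-72, Ighv5-2, Ighv11-2, and Ighv12-3, and the ends of the cluster. Ighv1-18, Ighv1-38, Ighv1-62-3, Ighv1-85, Ighv2-2, Ighv3-1, Ighv5-12, Ighv7-1, Ighv8-7, Ighv14-2, Ighv14-3, the segments DESeq2 called, and the functional rows at 0 were named after their values were seen. Promoters of the segments were not analysed here.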

Additional observations from a re-analysis of the deposited data

Results flagged for a closer look

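Ighv counts above the floor of 3 were also found in organs that entered no comparison. The WT livers held 13 and 38 counts and the KO livers 30 and 77. The WT kidneys held 16 and 22 and the KO kidneys 90 and 194. The WT hearts held 4 and 102 and KO replicate 2 of the heart 36, while KO replicate 1 of the heart had 2. In sums over the libraries of an organ, Ighv1-81 led in the liver, with 25 of 158 counts, and in the kidney, with 66 of 322. It led both KO kidneys, with 20 and 46 counts, whereas Ighv1-82 and Ighv11-1 led the WT kidneys with 4 counts each. In the liver, Ighv3-6 led WT replicate 2 and Ighv1-56 led KO replicate 1. The heart sum was led by Ighv1-55 with 15 of 144, but the libraries were led by Ighv5-16 and Ighv1-26 in WT and by Ighv2-3 and Ighv10-1 in KO. The difference between genotypes in the kidney was not tested. Blood or lymphoid tissue in these organs was not measured here.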

How the results depend on the processing

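The count of called segments depended on the settings. In the spleen KO comparison edgeR called 0 (0.223% of all genes), DESeq2 called 3 (1.35%), and the fit without a filter on low counts called 8 of 133 rows (1.04%). In the small intestine and in the interaction DESeq2 called 1, and the edgeR fits, leave-one-out fits included, called 0. In the tissue comparison 71 became 5 with the library size set to Ighv counts, and 10 when KO replicate 1 of the small intestine was also left out. Of the values of summary results under an alternative, 122 kept their direction and call or stayed near the main count, 9 counts moved by more than 1.5 times or away from 0, 2 values reversed, and 1 lost its call. Medians of the Ighv log2 fold changes are not among these, and leaving out 1 library turned their sign in the spleen (0.30 to -0.40), the small intestine (-0.27 to 0.74), and the interaction (0.98 to -0.35). The share of the most used segment turned from 0.630 to -1.41 percentage points without the most used segment of each library, and the proximal share turned from 2.36 to -0.440 without KO replicate 1 of the small intestine, within a leave-one-out range of -0.440 to 4.33. Without KO replicate 2 of the small intestine the log2 fold changes of Ighv1-75, Ighv1-78, and Ighv5-4 turned to -0.11, -6.08, and -5.84, and leaving out other libraries gave up to 4.43, 8.57, and 2.53. The causes were not tested, other than that these settings use fewer libraries or segments.

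With the replicate block, the Ighv difference between tissues of 0.0405 percentage points had p = 0.125 in an exact permutation of signs within pairs, the smallest p it can give, and edgeR called 0, 0, 73, and 0 segments in the spleen, small intestine, tissue, and interaction fits, beside 0.228%, 0%, 51.5%, and 0% of all genes in either direction. Deviations of same-numbered libraries correlated at 0.50 across genes between WT and KO small intestine, where Fabp6 also parted replicates 1 from replicates 2, but at 0.01 in the spleen and -0.02 to 0.09 between tissues. No label ties the numbers to an animal or day, so they were not taken as pairs over all 8 libraries. A minimum of 10 counts in every library left no Ighv row in the fits that use the small intestine. Usage in the small intestine is limited by depth, since a row with 0 of the 71 counts of KO replicate 1 may hold a share of up to 4.23%.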

Other observations

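The variable segments of the kappa light chain gave effective numbers of 33.8 and 36.3 in WT spleen and 26.2 and 29.5 in KO spleen, so the KO values were the 2 lowest of the 4, as for the heavy chain, although KO replicate 2 was the lower for the heavy chain and KO replicate 1 for kappa. With 2 libraries a group this order was not tested. In KO spleen the replicates had different segments in excess of their partner, since Ighv1-53 was at 6.10% in replicate 1 and 1.92% in replicate 2, and Ighv1-9 at 2.28% and 9.78%. The share of Ighv counts that would have to move to make a pair of replicates equal was 17.9% in WT spleen, 26.2% in KO spleen, 38.9% in WT small intestine, and 66.3% in KO small intestine. In this order the pairs rest on 11718 and 9654, 8813 and 22119, 2112 and 831, and 71 and 1870 counts. The measure is not corrected for depth and grows with counting error, so its order does not separate depth from differences between replicates.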
